A study of Sus scrofa with 13 samples.

Results

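Of the 268 long noncoding RNAs (lncRNAs) with at least 1 RPKM in the longissimus dorsi, a back muscle, of pigs at day 0 after birth, 119 were at 25% of that value or less at day 240. They are called the falling lncRNAs here. RPKM is the number of reads on a feature scaled by its length and by the size of the library. The members were thus chosen by their values at day 0 and day 240, which are given only as a description. They were 44.4% of the lncRNAs at this limit of day 0. By the same rule, 928 of 7021 Ensembl genes (13.2%) were at 25% or less. The lncRNAs and Ensembl genes were not matched for level, number of reads or length, here or below, so their shares are not a like comparison. With the limit at 50% of day 0, 179 of the 268 lncRNAs (66.8%) were below it. In all, 10813 lncRNAs were listed among 32420 features. The other 149 lncRNAs with at least 1 RPKM at day 0 were used for comparison.

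LncRNAs are transcripts that are not translated into protein. Many are present at low levels and in few tissues or stages. Some act in the nucleus on the transcription of other genes, and others act in the cytoplasm by binding microRNAs or proteins. In skeletal muscle, lncRNAs are known that act in the differentiation of myoblasts, the precursor cells that fuse into muscle fibres. After birth, pig muscle grows by enlargement of fibres that are already present, and embryonic and neonatal forms of the contractile proteins give way to adult forms. In the files used here the falling lncRNAs carry only the identifiers of the transcript assembly. Their annotation, sequences and positions in the genome were not analysed here.

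Total RNA was sequenced from 13 libraries, all made after removal of ribosomal RNA. Longissimus dorsi of Guizhou mini-pigs was sampled at day 0, day 30 and day 240, and adipose tissue, heart, kidney, liver, lung, ovary, spleen and testis of the same breed at day 240. The remaining 2 libraries pooled equal quantities of RNA across breeds and ages, either of many tissues (the tissue mixture) or of longissimus dorsi alone (the muscle mixture). There was 1 library per condition, so no difference between libraries has a replicate check and no test between conditions could be made. The labels name neither the number and sex of the animals behind a library nor the animals, ages and breeds in the mixtures. They give SMART or dUTP as the strand-specific protocol without saying which library was made with which, so a difference between libraries and a difference of protocol cannot be told apart. In bulk tissue, fewer cells of a type and less RNA per cell cannot be told apart either.

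Reads were recovered from the RPKM values. The libraries held 21685316 to 38581416 reads in the single tissues, with 35748717, 24445391 and 32641450 in muscle at day 0, day 30 and day 240. In muscle at day 30, 3620348 reads lay on the listed features, against 7288042 at day 0 and 7154465 at day 240. Over the 4288 Ensembl genes with at least 1 RPKM at all 3 stages, the median ratio to day 0 was 0.552 at day 30 and 0.696 at day 240, which is a shift of −0.86 and −0.52 on the log2 scale. Every value below is RPKM as deposited, and the differences between stages are to be read against this shift. The organ markers ALB (liver), SFTPC (lung), UMOD (kidney), PRM1 (testis), CD79B (spleen), MYH6 (heart), PLIN1 (adipose tissue) and ZP3 (ovary) were each highest, among the single tissues, in the organ they mark, and ACTA1, the skeletal muscle actin, was at 2012 RPKM or more at the 3 stages of muscle. MYH6 was not limited to heart (4521 RPKM), with 379, 378 and 768 RPKM in muscle at day 0, day 30 and day 240. ZP3 was at only 2.43 RPKM in ovary. Against its label, liver held the apolipoprotein gene APOA1 at only 0.364 RPKM, and lung held the liver marker ALB at 343 RPKM.

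Most of the falling lncRNAs were of low level already at day 0. Their median was 1.84 RPKM (1.001 to 60.2), and 68 of 119 were under 2 RPKM. Only 8 reached 5 RPKM and 4 reached 10 RPKM. The members had a median of 33 reads at day 0 (8 to 861), and 29 had fewer than 20. At day 240 the median was 0.101 RPKM, 41 were listed at 0, and 5 were still at 1 RPKM or more. The sum over the members was 360.8 RPKM at day 0, 146.2 at day 30 and 28.0 at day 240. The pair of highest members carried 24.8% of this sum at day 0 and 50.7% at day 30. Without them the sums were 271.5, 72.1 and 23.4 RPKM.

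For the 78 members above 0 at day 240, the ratio of day 0 to day 240 ranged from 4.11 to 56.6, with a median of 9.13. For the 41 members at 0 it was set against a floor of 3 reads at day 240, which lies below the upper end of the exact interval of 0 reads, and was at least 2.43-fold to at least 23.7-fold. For 11 of these 41, the fold against this floor was under 4, so the depth does not show the fall that the rule asks for. The 95% interval of the ratio, from the reads in both libraries, lay above 4 throughout in 51 of 119 members and above 2 in 107. These and all other intervals on single RPKM values (exact Poisson, 95%) cover counting error only. Just inside the limit of 25% lay TCONS_00825726, at 1.39 RPKM at day 0 and 0.339 at day 240 (24.3%). Just outside lay TCONS_00009092, at 3.04 and 0.763 RPKM (25.1%). At the other limit, TCONS_00239246 was inside at 1.001 RPKM at day 0, and TCONS_00519893 was outside at 0.999.

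**Figure D1:**
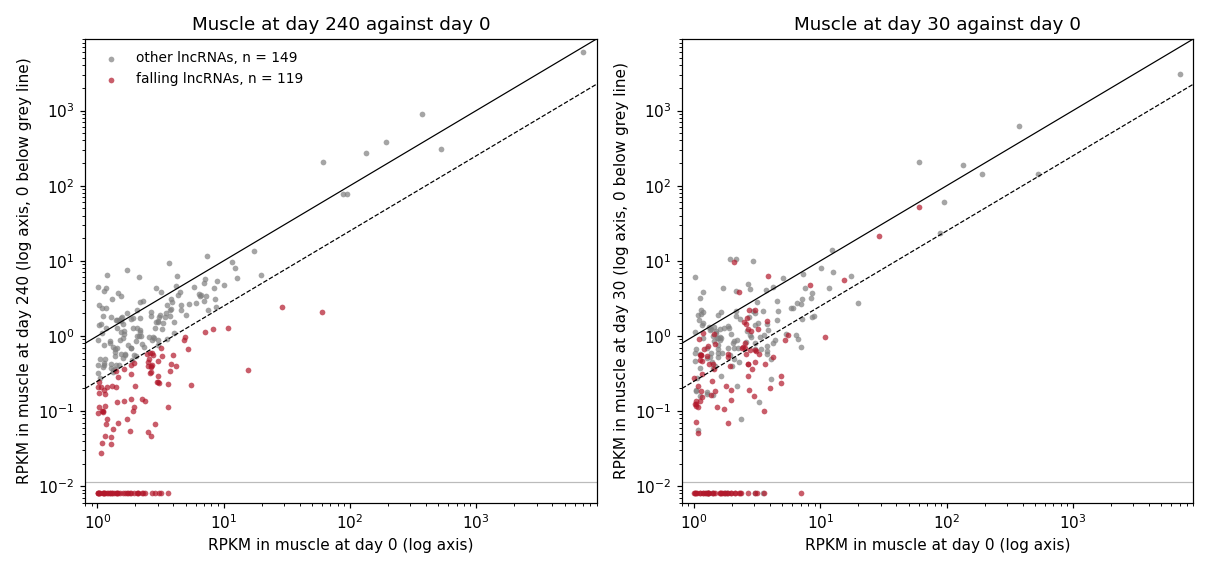
RPKM in muscle at day 240 (left) and day 30 (right) against day 0, on log axes, for the 119 falling lncRNAs (red) and the 149 other lncRNAs with at least 1 RPKM at day 0 (grey), 1 point per lncRNA. The solid line marks equal values and the dashed line 25% of day 0, and values of 0 are drawn under the grey line. The red points lie on or under the dashed line on the left because they were chosen so, and on the right 80 of 119 do.

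The same rule read in the opposite direction shows how often this limit was passed between these libraries. Of 160 lncRNAs with at least 1 RPKM at day 240, 37 (23.1%) were at 25% of that or less at day 0. Among Ensembl genes this was 202 of 5548 (3.64%). From day 30 to day 240, 61 of 170 lncRNAs (35.9%) with at least 1 RPKM at day 30 were at 25% or less, and 52 of 170 (30.6%) had been at 25% or less at day 0. Scaling the stages to the same median ratio left 102 members of 268 (38.1%), all of which are among the 119.

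At the top of the list, TCONS_00823102 was at 60.2 RPKM at day 0 (55.4 to 65.4), 52.7 at day 30 (47.2 to 58.6) and 2.11 at day 240 (1.25 to 3.34). It was the most abundant member in muscle at both early stages, and the intervals of day 0 and day 30 overlap. In the organs at day 240 it was at 543.8 RPKM in adipose tissue, 49.6 in ovary, 10.7 in lung, 5.27 in kidney, 4.37 in heart, 1.37 in liver and 0.632 in spleen, and at 0 in testis. The tissue mixture held 192.5 RPKM and the muscle mixture 143.6. Its value was therefore higher in adipose tissue and in both mixtures than in any stage of muscle. TCONS_00823099, with an identifier 3 numbers away, showed 3.64 RPKM at day 0, 0.420 at day 30 and 0 at day 240. It was at 33.4 RPKM in adipose tissue and 2.37 in ovary and at 0 in the other 6 organs, with 1.63 in the muscle mixture and 1.20 in the tissue mixture. The 2 identifiers may belong to 1 locus or share reads.

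Since the level of these members was highest in adipose tissue, the adipocyte markers in muscle are given beside them. The 5 measured genes of this list summed to 1.55 RPKM at day 0, 0.530 at day 30 and 0.404 at day 240. None of the 5 reached 1 RPKM in muscle at any of these stages. PLIN1 rested on 10, 0 and 1 reads at the 3 stages and CIDEC on 14, 0 and 5, so their course is read from few reads. PLIN1, the coat protein of fat droplets, was at 0.177, 0 and 0.0194 RPKM in muscle at the 3 stages and at 82.1 RPKM in adipose tissue. CIDEC, another fat droplet protein, was at 0.303, 0 and 0.118 RPKM. LIPE, a lipase of stored fat, was at 0.554, 0.196 and 0.166 RPKM, and PPARG, a transcription factor of fat cells, at 0.517, 0.334 and 0.1 RPKM. PCK1 was at 0 at all 3 stages, but it was at 116 RPKM in kidney and 43.1 in liver against 1.76 in adipose tissue, so it did not mark adipose tissue here. The part of fat cells in the values of TCONS_00823102 and TCONS_00823099 was not tested.

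The next member, TCONS_00578282, was at 29.1 RPKM at day 0 (25.9 to 32.6), 21.5 at day 30 (18.2 to 25.2) and 2.46 at day 240 (1.56 to 3.68). It was at 0 in 6 organs, 0.287 RPKM in kidney and 0.185 in adipose tissue. Even after the fall, muscle at day 240 held more of it than any of the other organs. In the muscle mixture it was at 3.87 RPKM and in the tissue mixture at 0.515. TCONS_00676199 had 5.51 RPKM at day 0, 1.03 at day 30 and 0.224 at day 240, from 836, 107 and 31 reads. Its organ values lay between 0.0122 RPKM in testis and 0.314 in heart. Here both mixtures were above every single tissue, with 15.9 RPKM in the muscle mixture (15.4 to 16.4) and 6.99 in the tissue mixture (6.75 to 7.23).

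The third member by level at day 0, TCONS_00458763, went from 15.4 RPKM (14.4 to 16.5) through 5.61 at day 30 to 0.353 at day 240. It had the most reads of all members at day 0 (861), and the ratio of day 0 to day 240 was 43.7 (27.5 to 74.0). Among the organs it was highest in lung, at 34.4 RPKM, followed by adipose tissue at 12.4, ovary at 10.3, heart at 5.43 and spleen at 3.91. Testis held 1.68 RPKM, kidney 0.652 and liver 0.416. The tissue mixture, at 27.8 RPKM, was above day 0, and the muscle mixture, at 5.72, was near the value of day 30.

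In 4 of the 10 most abundant members the lowest of the 3 stages was day 30, with overlapping intervals of day 30 and day 240 in all but TCONS_00499472. TCONS_00754932 was at 10.8 RPKM at day 0, 0.975 at day 30 and 1.26 at day 240. TCONS_00149944 was at 7.07 RPKM at day 0, at 0 at day 30 and at 1.12 at day 240 (0.538 to 2.06), from 69, 0 and 10 reads. TCONS_00499472 went from 4.90 to 0.235 and 0.968 RPKM, and TCONS_00808994 from 4.83 to 0.294 and 0.882. By contrast, TCONS_00319871 was at 8.23, 4.79 and 1.23 RPKM and TCONS_00771181 at 5.22, 0.882 and 0.661. Over all members, 26 of 119 were lower at day 30 than at day 240. In 65, day 30 was above 0, no higher than day 0 and no lower than day 240. In the other lncRNAs, which were not chosen for a low day 240, these were 106 and 26 of 149, so the rule bears on both counts. The second count leaves out lncRNAs that rose from day 0 to day 240, and 38 of the 149 were at day 0 or above at day 240.

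**Figure D2:**
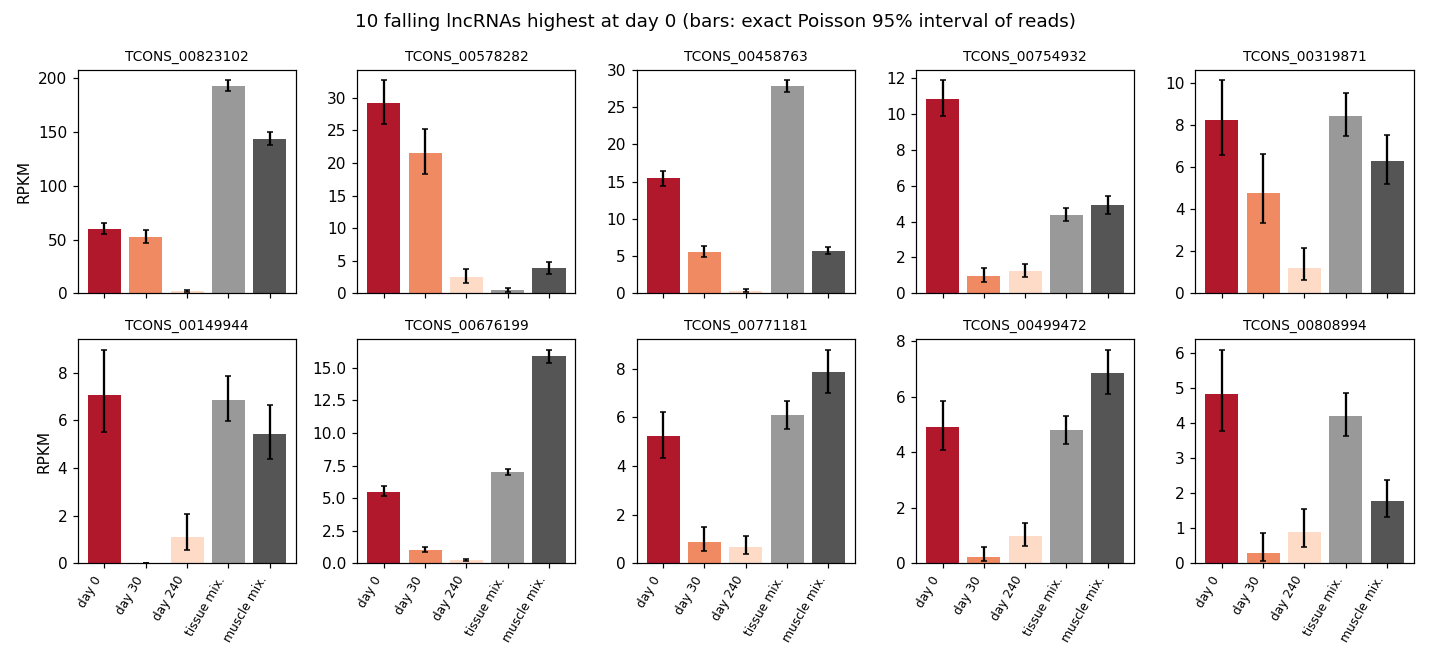
RPKM of the 10 falling lncRNAs with the highest value at day 0, in muscle at day 0, day 30 and day 240 and in the tissue and muscle mixtures, with 1 panel per lncRNA and its own linear axis from 0. Error bars are the exact Poisson 95% interval of the reads in 1 library, and a value of 0 has no bar. TCONS_00823102, TCONS_00676199 and TCONS_00771181 are higher in both mixtures than at day 0, the last with error bars that overlap for the tissue mixture, and TCONS_00149944 is at 0 at day 30.

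The rule did not use day 30. The median level of the members at day 30 was 0.217 RPKM, 38 of 119 were at 0, and 19 were at 1 RPKM or more. Among the 149 other lncRNAs the median was 1.09 RPKM, 7 were at 0 and 80 were at 1 RPKM or more. Set against their day 0 value, 80 of 119 members (67.2%) were at 25% or less at day 30, where 118 of all 268 lncRNAs were (44.0%) and 1389 of 7021 Ensembl genes (19.8%). A further 21 were between 25% and 50%, 18 were at 50% or more, and 3 were above day 0. In the other lncRNAs, 38 of 149 (25.5%) were at 25% or less and 65 were at 50% or more. Both falls are measured from the same day 0 library, so a high value there lowers both ratios, and these counts are not independent of the rule.

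On the log2(RPKM + 0.1) scale, the median difference of day 30 from day 0 was −2.45 in the members and −1.16 in the other lncRNAs. For the 7021 Ensembl genes with at least 1 RPKM at day 0 it was −1.07. Scaled to the same median ratio, the value of the members was −1.86, and 55.5% of them were at 25% or less. The values of the other lncRNAs and the Ensembl genes are as deposited, so these scaled values are not to be set beside them. Depth at day 30 limits these counts. For 12 of the 38 members at 0, 3 reads at day 30 would still be more than 25% of day 0. The median of 3 reads over the members is 0.273 RPKM at this depth. Members at 0 at day 30 had a median of 22 reads at day 0, and those above 0 had 46.

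**Figure D3:**
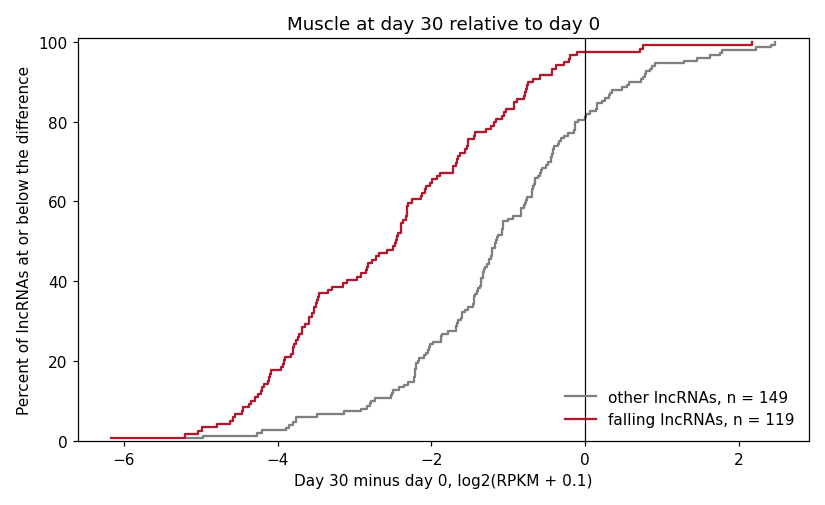
Cumulative percent of lncRNAs (vertical axis) by their difference of muscle at day 30 from day 0 on the log2(RPKM + 0.1) scale (horizontal axis), for 119 falling lncRNAs (red) and 149 other lncRNAs (grey). The red line lies to the left of the grey line, with medians of −2.45 and −1.16, and few members lie right of 0.

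Of the 18 members at 50% of day 0 or more at day 30, the most distant from the rest was TCONS_00073333, at 2.05 RPKM at day 0 (1.17 to 3.33), 9.57 at day 30 (7.13 to 12.6) and 0 at day 240. Its intervals at day 0 and day 30 do not overlap. TCONS_00321302 was at 2.24, 3.86 and 0.145 RPKM and TCONS_00245674 at 3.81, 6.32 and 0.418, in both with more at day 30 than at day 0 but with overlapping intervals. TCONS_00425732 stayed near its day 0 value, with 1.17, 1.08 and 0.0676 RPKM. The 18 members had a median of 2.37 RPKM at day 0 against 1.78 in the 80 members at 25% or less at day 30. In the median they were at 1 RPKM or more in 5.5 of 8 organs, against 2 in the 80. The muscle mixture was at 50% of day 0 or more in 13 of 18 and in 32 of 80, but also in 17 of the 21 members between 25% and 50% at day 30. The grouping and this share are both set against the same day 0 values. A value of 0 at day 240 was found in 33 of these 80 members, in 7 of the 21 and in 1 of the 18. Such a value also depends on the reads at day 0, with medians of 30.5, 53 and 37 in these groups.

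Among those with at least 20 reads at day 0, the largest falls by day 240 on the log2(RPKM + 0.1) scale were those of TCONS_00823099, TCONS_00458763 and 4 further members, all but TCONS_00458763 at 0 at day 240. TCONS_00418724 (3.17 RPKM at day 0) and TCONS_00836995 (3.05 RPKM) were also at 0 at day 30. TCONS_00129937 was at 2.83 RPKM at day 0 and 1.16 at day 30, and TCONS_00681385 at 2.73 and 0.190. They differed in where else they were found at day 240. TCONS_00836995 was highest in kidney (4.20 RPKM) and at 0 in 5 organs, TCONS_00418724 was highest in ovary (2.61 RPKM), and TCONS_00129937 was highest in lung (4.16 RPKM), with 2.1 RPKM or more in heart, spleen, kidney, ovary and adipose tissue. TCONS_00681385 was highest in heart (2.97 RPKM).

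Few of the falling lncRNAs were limited to newborn muscle among these libraries. At day 240, 93 of 119 (78.2%, 95% Wilson interval 69.9 to 84.6%) were at 1 RPKM or more in at least 1 of the 8 organs other than muscle, and 127 of the 149 other lncRNAs were (85.2%, 78.7 to 90.0%). These Wilson intervals treat the lncRNAs as a random sample, and the 2 of them overlap. In at least 1 organ, 74 members (62.2%) and 67.8% of the others were above their own day 0 value in muscle. At the limit of 1 RPKM, the members were found in fewer organs than the other lncRNAs. At 1 RPKM or more, 49 members were found in 4 or more organs (41.2%, 32.7 to 50.2%) against 88 others (59.1%, 51.0 to 66.6%), and 5 in all 8 organs against 25. The others were of higher level, with medians at day 0 of 2.16 RPKM and 67 reads against 1.84 RPKM and 33 reads. The sets were not matched for level, so level and range of organs cannot be told apart here, also in the index that follows. Tau, an index of tissue specificity that runs from 0 for equal levels to 1 for a single organ, had a median of 0.552 in the 117 members above 0 in at least 1 of 9 organs and 0.410 in the others. Muscle at day 240, low in the members by the rule, is among these 9 organs. Over the 8 remaining organs the medians were 0.529 and 0.386.

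Ovary was the organ with the highest value for 36 members, testis for 26, kidney for 19, lung for 13, heart for 9, spleen for 7, adipose tissue for 6 and liver for 1. For the other lncRNAs the order was similar at the top, with ovary in 45 and testis in 29 of 149. The shares differed most for heart, with 7.56% of the members (4.03 to 13.8%) and 18.8% of the other lncRNAs (13.3 to 25.8%). The rule itself placed lncRNAs that stayed higher in muscle at day 240 among the others. Its part in the difference for heart was not tested. Some of the others highest in heart have identifiers close together, such as TCONS_00323177, TCONS_00323179 and TCONS_00323183. They may share a locus, but the Wilson intervals count each lncRNA as separate. Median levels of the members were 1.12 RPKM in ovary, 0.812 in testis, 0.729 in kidney, 0.597 in lung, 0.568 in spleen, 0.456 in adipose tissue, 0.454 in heart and 0.122 in liver. All of these but liver were above the median of 0.101 in muscle at day 240 by more than 4 times. The rule chose members for their low value in that library, so the gap to muscle is not a finding. The depth and the share of reads on features differ between these libraries, with the fewest reads and the highest share in ovary.

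**Figure D4:**
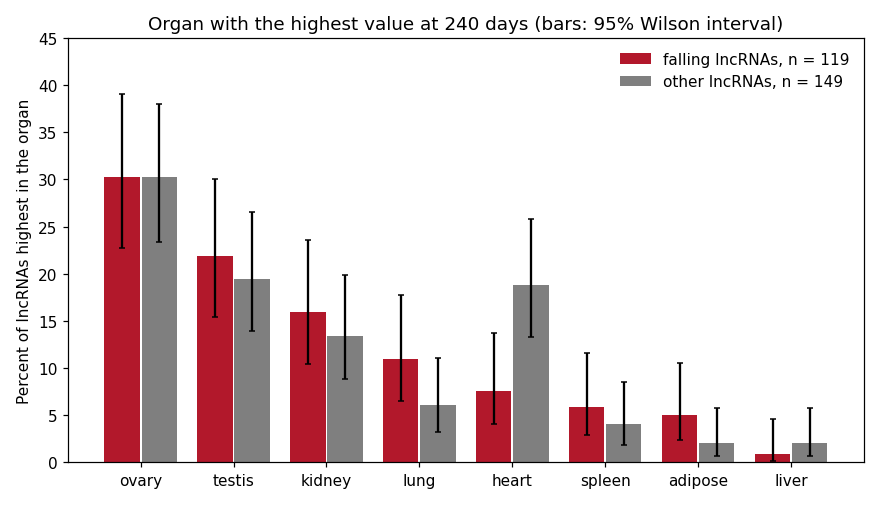
Percent of lncRNAs (vertical axis) that had their highest value among 8 organs at day 240 in the organ named (horizontal axis), for 119 falling lncRNAs (red) and 149 other lncRNAs (grey), with 95% Wilson intervals. Ovary is the highest organ for 30.3% of the members and 30.2% of the others, and heart for 7.56% and 18.8%. The rule places lncRNAs that stay higher in muscle at day 240 among the others, and the intervals count each lncRNA as separate.

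Several members were abundant in a gonad. TCONS_00729940 was at 1.80 RPKM in muscle at day 0, 0.219 at day 30 and 0.0546 at day 240, and at 106.6 RPKM in testis. Elsewhere it was at 9.02 RPKM in lung, 8.27 in heart, 4.27 in ovary, 3.53 in kidney, 2.45 in adipose tissue and 1.27 in spleen, and at 0 in liver. TCONS_00363509, at 3.76, 1.60 and 0.343 RPKM in the 3 stages of muscle, was at 35.9 RPKM in testis and 11.2 in ovary. TCONS_00154809, at 2.49, 1.52 and 0.403 RPKM in muscle, was at 31.2 RPKM in ovary and 21.1 in testis. The latter 2 were at 1 RPKM or more in all 8 organs, as were TCONS_00319871, TCONS_00149944 and TCONS_00808994. For these 5, muscle at day 240 ranged from 0.343 to 1.23 RPKM. In TCONS_00319871, testis at 1.04 RPKM was lower than muscle, and in each of the other 4 all 8 organs were above muscle.

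At the opposite end, 13 of 119 members were at 25% of day 0 or less in all 8 organs as well, and 14 of the 149 other lncRNAs were. The most abundant of the 13 were TCONS_00578282 and TCONS_00676199. TCONS_00025592, at 2.09 RPKM at day 0 from 25 reads, was at 0 at day 30, at day 240 and in all 8 organs. The muscle mixture held 0.380 RPKM of it and the tissue mixture 0.111. TCONS_00558799, at 2.10 RPKM at day 0, was at 0 at the later stages and in all organs but ovary (0.277 RPKM), with 0.572 RPKM in the muscle mixture. Of these 13, 10 were at 25% of day 0 or less at day 30, and 3 had fewer than 20 reads at day 0. The muscle mixture held 50% of the day 0 value or more in 3 and 25% or less in 6. Under 1 RPKM in all 8 organs, whatever the value at day 0, were 26 of 119 members.

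**Figure D5:**
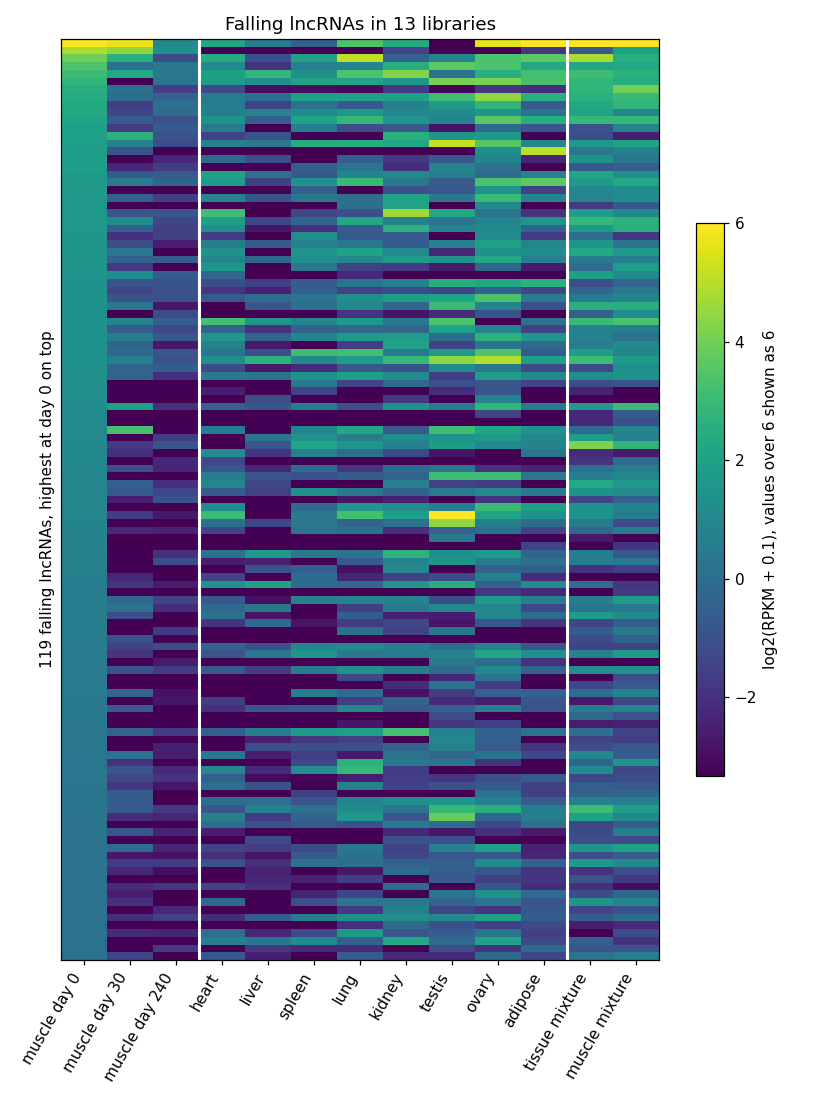
Levels of the 119 falling lncRNAs (rows, highest at day 0 on top) in 13 libraries (columns), as log2(RPKM + 0.1) by colour, with values over 6 shown as 6 and white lines between muscle stages, organs and mixtures. The darkest colour is a value of 0, which 38 members have at day 30, 41 at day 240, 42 in liver and 13 in ovary.

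The mixtures were not used by the rule. In the muscle mixture, which holds RNA of several ages and breeds, the median of the members was 1.40 RPKM, and 114 of 119 were above 0. It was above muscle at day 240 in 110 members and in 102 of the 149 others. It was both below day 0 and above day 240 in 74 and 24, a count that leaves out lncRNAs that rose from day 0 to day 240. The low day 240 values that the rule asks for bear on these counts. It held at least 50% of the day 0 value in 62 members (52.1%, Wilson interval 43.2 to 60.9%) and in 118 of the other lncRNAs (79.2%, 72.0 to 84.9%), and it was above day 0 in 36 members and 83 others. These ratios again share the day 0 library with the rule. In the tissue mixture the median was 0.965 RPKM, 112 members and 148 others were above 0, and 38 of 119 members and 67 of 149 others were above day 0. Both mixtures were above day 0 in 27 members, a count that was not made for the other lncRNAs.

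Relative to day 0, the muscle mixture was highest for TCONS_00020268, at 4.15 RPKM against 1.08 at day 0, followed by TCONS_00437739 (9.93 against 2.62), TCONS_00321302 (8.01 against 2.24) and TCONS_00794848 (6.67 against 1.96). Among these, TCONS_00437739 was also at 9.15 RPKM in heart and 10.2 in testis, and TCONS_00794848 was at 17.6 RPKM in the tissue mixture, above its value in every single tissue. TCONS_00020268 was highest in ovary among the organs, at 3.72 RPKM. At the low end, TCONS_00245674 was at 3.81 RPKM at day 0 and 6.32 at day 30 but had 1 read in the muscle mixture (0.0721 RPKM). Of the 5 members at 0 in the muscle mixture and 7 at 0 in the tissue mixture, 3 were at 0 in both, with 1.32 to 2.25 RPKM at day 0. They were TCONS_00389860, TCONS_00524167 and TCONS_00571649, named after their values were seen, and they had 1.68, 1.59 and 1.22 RPKM in their highest organ.

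The mixtures stood apart from the single tissues in other lncRNAs. TCONS_00512109, the most abundant lncRNA at day 0, was at 278 RPKM or more in all 11 single tissues, but at 47.1 in the muscle mixture and 3.29 in the tissue mixture. Breed, age, tissue and the protocol of the library cannot be told apart as the source of such a difference, and the same holds for the values of the falling lncRNAs in the mixtures.

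In their recovered lengths, the falling lncRNAs had a median of 449 nucleotides (201 to 6208). Under 500 nucleotides were 62 of 119 members (52.1%, Wilson interval 43.2 to 60.9%) and 64 of 149 other lncRNAs (43.0%, 35.3 to 51.0%). These intervals overlap. The median was 563 nucleotides in the 149 other lncRNAs and 826.5 in the 4992 lncRNAs above 0 in 4 or more libraries. The shortest length with whole reads throughout was taken for each feature, so the true length may be longer and its reads more. Of the members, 116 of 119 were above 0 in 4 or more libraries, where fewer lengths fit. Even so, the shortest of the 4992 lncRNAs was at 67 nucleotides, although the authors left out short transcripts. At the same RPKM a short transcript has fewer reads, so the counting error of short members is larger. Identifiers no more than 40 numbers apart were found for 3 pairs of members, a limit chosen after the data were seen. Besides TCONS_00823099 and TCONS_00823102, these were TCONS_00524139 with TCONS_00524167 and TCONS_00771181 with TCONS_00771215. In the last pair the values were 5.22 and 3.60 RPKM at day 0 and 0.661 and 0.113 at day 240. No other listed lncRNA lay between the identifiers of this pair, so they may belong to 1 locus. Their number in the count of members is not corrected for this.

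Genes of muscle and of the other cell types in the tissue were described beside the members, by lists of known markers and by a difference of 2-fold on the log2(RPKM + 0.1) scale. Of all 7466 Ensembl genes with at least 1 RPKM at day 0 or day 240, 37.1% were lower and 7.46% higher at day 240, with a median of −0.69. From day 0 to day 30, 48.8% of 7581 were lower and 6.57% higher, with a median of −0.97. Of the extracellular matrix and fibroblast genes, 11 of 14 were lower at day 240, 6 of these at 25% or less, and none was higher. Their median was −1.70. The collagen gene COL1A2 was at 51.2 RPKM at day 0, 21.8 at day 30 and 3.61 at day 240. SPARC, a protein that binds collagen, was at 28.9, 8.80 and 9.03 RPKM. COL3A1 was at 24.6, 58.1 and 9.22 RPKM, highest at day 30, and the proteoglycan gene DCN was at 23.1, 16.5 and 25.1. The list summed to 202.8, 158.8 and 73.0 RPKM at the 3 stages and to 1964 RPKM in the muscle mixture.

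Of the adult fibre genes, 4 of 7 were higher and none lower at day 240. TNNC2, the troponin C of fast fibres, was at 4717 RPKM at day 0, 2877 at day 30 and 10378 at day 240. LDHA, a subunit of lactate dehydrogenase, was at 214, 490 and 1301 RPKM, and ATP2A1, the calcium pump of fast fibres, at 213, 352 and 351 RPKM. Of the neonatal muscle genes, 3 of 9 were lower and 3 higher at day 240. ACTC1, the actin of heart and immature muscle, was at 84.9, 7.23 and 0.939 RPKM. MYBPH, a myosin-binding protein, was at 99.6, 99.7 and 51.2 RPKM. In contrast, MYH8, the neonatal myosin heavy chain, was at 1888, 2442 and 3695 RPKM, and SLN, a regulator of the calcium pump, was at 91.1, 165.0 and 252.6 RPKM, so both were highest at day 240. This goes against the known course of MYH8 after birth. Myosin heavy chain genes are near copies of each other, and the adult genes MYH1, MYH2 and MYH4 had no symbol paired with a listed identifier, so the reads of these genes may be split or shared.

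Of the other lists, the growth and imprinted genes had 2 of 3 lower at day 240. GRB10, an adaptor that binds the insulin receptor, was at 4.03, 1.91 and 2.90 RPKM, and PLAGL1, an imprinted transcription factor, at 1.97, 0.658 and 0.274. None of the 11 measured cell cycle genes reached 1 RPKM at day 0 or day 240. They summed to 2.02 RPKM at day 0, 8.56 at day 30 and 1.21 at day 240. The endothelial adhesion molecule PECAM1 was at 8.34, 6.62 and 5.29 RPKM, and the haemoglobin gene HBB at 19.6, 7.27 and 9.36. Of these lists, 1 of 3 endothelial and 1 of 1 erythroid genes were lower at day 240. The 7 measured immune genes summed to 0.907, 1.86 and 1.11 RPKM. The part of connective tissue, vessel and blood cells in the values of the falling lncRNAs was not tested.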

How the data were processed

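Total RNA-seq of 13 pig libraries was used, with 1 value per feature and library. The authors used TopHat (1.3.2 per the labels) for mapping and Cufflinks for assembly, and left out transcripts that were annotated, short, of 1 exon or possibly coding. After counting with htseq-count they deposited the levels as RPKM values. The genome assembly of these libraries and the reads that make up the total in RPKM are not given in the sources used here. Strand was kept in the libraries, but the setting of the counting is not given. Conditions were taken from the labels.

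Read totals, feature lengths and whole reads were recovered from the RPKM values, since each value is a whole number of reads divided by length and total. A length was found for 29462 of 29462 features above 0 (tolerance 1e-05 in the fraction by which reads may differ from whole). The recovery was tested on simulated data. Exact Poisson and Wilson intervals of 95% and a floor of 3 reads were computed with Python 3.11.15, numpy 2.4.6, pandas 2.3.3 and scipy 1.17.1, and figures were drawn with matplotlib 3.10.9. No test between conditions was made, as there was 1 library per condition. The pseudocount was 0.1.

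Members were lncRNAs with at least 1 RPKM in muscle at day 0 and at most 25% of it at day 240. Members and marker lists were chosen with earlier results of these data known. Named were the 10 highest at day 0, the 6 largest falls with at least 20 reads, the 5 highest at day 30 and the 4 highest in the muscle mixture relative to day 0, the 6 highest in another organ, the 4 lowest in all other organs with at least 2 RPKM at day 0, and the features nearest to the limits. Of each marker list at most 4 genes, those highest at day 0, were named, beside PCK1, organ markers and genes without a paired symbol. A further item of the lists is not reported here. Symbols were paired with Ensembl identifiers for 11654 genes. Alternatives were other limits, pseudocounts and scalings, a minimum of 20 reads, and, chosen after seeing the data, 3 reads in place of 0 and tau over 8 organs.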

Additional observations from a re-analysis of the deposited data

How the results depend on the processing

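No paired analysis was possible because there was 1 library per condition, and no replicate could be left out. With a minimum of 0.5 RPKM at day 0 there were 248 members, and with 2 RPKM 51 (38.3% of 133 lncRNAs). With falls of at least 2-fold and 8-fold the members were 179 (66.8%) and 84 (31.3%), and with the same median ratio the share was 38.1%. Of 268 lncRNAs, 85.8% were lower at day 240 than at day 0 as deposited and 77.2% after scaling to the same median ratio. The median difference at day 30 from day 0 (log2) was −2.95 with a pseudocount of 0.01, −1.07 with 1, −2.04 at the same total, −1.86 at the same median ratio and −1.98 with 3 reads in place of 0. The last 2 of these put 55.5% and 57.1% of members at 25% or less. At 1 RPKM or more in an organ were 64.7% without testis and ovary, and with limits of 0.5 and 2 RPKM the shares were 87.4% and 55.5%. Median tau was 0.704 with a pseudocount of 1 and 0.408 with 0.01. At 25% or more of day 0 in the muscle mixture were 77.3%. Of the marker genes lower at day 240 (19), 10 passed 4-fold, and of the matrix genes 6, while all 7 adult fibre genes were higher by 2-fold at the same median ratio. The remaining 23 of 46 recomputed values stayed within their counting interval, or within 1.5 times for counts, and none changed sign. With 1 library per condition, differences between animals cannot be separated from those between stages, and members with few reads depend on counting error.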

Other observations

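The 149 other lncRNAs with at least 1 RPKM at day 0 held the most abundant lncRNAs of muscle. TCONS_00512109 was at 6997 RPKM at day 0, 3023 at day 30 and 6038 at day 240. TCONS_00828878 was at 530, 145 and 310 RPKM, with 14.1 RPKM or less in the organs, and TCONS_00323177 at 372, 626 and 893 RPKM, with 219 RPKM in heart. Of the 149, 38 were at the day 0 value or above at day 240, 3 of these by 4-fold or more, and 28 were within 2-fold of day 0 at both later stages. In 17, the value was at 25% of day 0 or less at day 30 and back at 50% or more at day 240.

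TCONS_00811385 was at 94.5 RPKM in muscle at day 0 and 77.1 at day 240, and at 0 in all 8 organs. In the muscle mixture it was at 771 RPKM and in the tissue mixture at 264. These lncRNAs were chosen after their values were seen, and no cause is given for their values.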
